A study of Mus musculus with 2 samples.

Results

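Fabp4 Rbp7 Aqp7 endothelial cells are a small set of cells defined here by a gate on unique molecular identifiers (UMIs, each marking 1 captured RNA molecule). A cell entered the set when it held 1000 to 5000 genes, under 20% mitochondrial UMIs, at least 2 UMIs of the endothelial genes Pecam1 and Cdh5 together, at least 10 UMIs of Fabp4, Rbp7 and Aqp7 together, and at least 2 UMIs of Rbp7 and Aqp7 together. The gate selected 142 of 16715 cells. Of these, 122 were among the 8394 cells of the control library and 20 among the 8321 cells of the B16-F10 library. The 3 genes of the gate chose the cells, so their levels are a description of the choice and not a finding.

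The data are 2 single-cell RNA libraries, 1 per group, from lungs of wild-type C57BL/6 mice taken 6 h after a tail vein injection. Control mice received phosphate-buffered saline (PBS), and the other mice received 400000 cells of B16-F10, a mouse skin melanoma line, in 100 µl of PBS. Cells positive for Pecam1 and negative for Ptprc, a leukocyte protein, were sorted, and melanoma cells carrying a green tracker dye were added from the injected lungs. The labels give 2 mice per treatment and the study's methods 3 pooled mice, so each group is 1 pooled measurement without a replicate. All differences below therefore compare 2 libraries or 2 sets of cells within a library, no test was possible, and all intervals are 95% intervals that cover counting error only.

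Capillary endothelial cells (ECs) of heart, skeletal muscle and fat take up fatty acids from the blood for the tissue around them. Fabp4 binds fatty acids inside the cell, Rbp7 binds retinol, and Aqp7 is a channel for water and glycerol. Pparg is a nuclear receptor that activates fatty acid genes, Fabp4 and Aqp7 among them in fat cells, and Meox2 and Tcf15 are transcription factors known as partners in the fatty acid uptake of heart and muscle capillaries. Lung capillaries consist of general capillary cells (gCap) and of aerocytes (aCap), which face the air spaces, and they carry their own set of genes such as Foxf1, Tmem100 and Hpgd.

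Fabp4 lies on chromosome 3 (chr3:10204088-10208576, minus strand), and Rbp7 (chr4:149449687-149454978) and Aqp7 (chr4:41033074-41048139) lie on the minus strand of chromosome 4, in mm10. The promoters of the gate genes are shown because Pparg was 1 of the most enriched genes of these cells and binds pairs of the letters AGGTCA. RefSeq sequences (GRCm38.p6) were at hand for Rbp7 and Aqp7. The 250 bases before each start are printed from 5′ to 3′, with AGGTCA or its reverse complement TGACCT in capitals. The Rbp7 window is chr4:149454969-149455218 and the Aqp7 window, before the outer of 2 starts, is chr4:41048137-41048386.
Rbp7: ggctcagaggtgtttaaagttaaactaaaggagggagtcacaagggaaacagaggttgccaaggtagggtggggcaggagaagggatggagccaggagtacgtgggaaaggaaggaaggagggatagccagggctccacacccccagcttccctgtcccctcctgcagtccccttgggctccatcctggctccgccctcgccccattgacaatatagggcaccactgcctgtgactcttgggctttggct
Aqp7: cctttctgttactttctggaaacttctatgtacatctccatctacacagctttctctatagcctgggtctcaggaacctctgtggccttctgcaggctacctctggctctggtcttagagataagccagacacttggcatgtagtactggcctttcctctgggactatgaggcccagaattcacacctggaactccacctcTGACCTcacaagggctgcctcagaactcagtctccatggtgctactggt
The Rbp7 window held no such letters and the printed Aqp7 window held them once, 49 bases before the start. The window before the inner Aqp7 start (chr4:41047963-41048212), which overlaps it and is not printed, held 2 matches, 223 and 101 bases before that start. The first of these is the same site as the match printed above. Among all 32851 windows of this length, 14.02% held at least 1 match on either strand. Counted by gene at any start, 15.76% of 27025 genes held a match. Windows were at hand for 17 of the 20 named genes that were highest in the gated cells (given below), and 2 of those genes, Pparg and Papss2, held a match. A match is a run of letters and not a bound site.

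**Figure D1:**
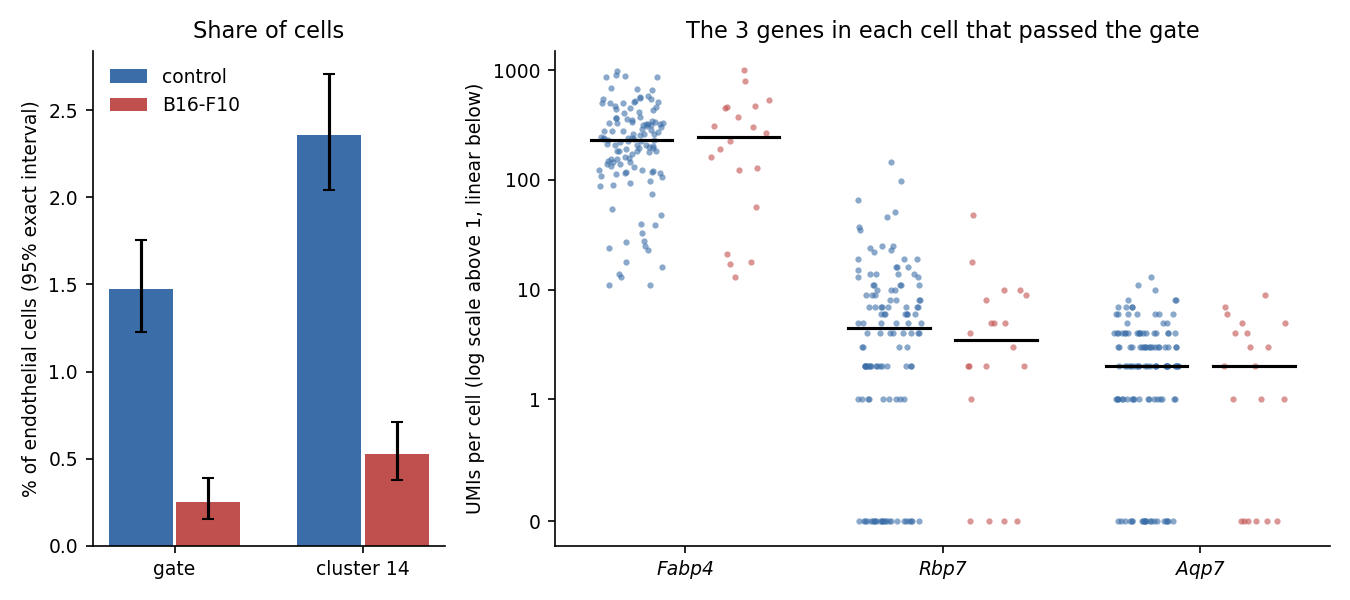
Left, share of ECs in % (y axis) that passed the gate or fell in cluster 14, by library, with exact 95% intervals. Right, UMIs per gated cell of Fabp4, Rbp7 and Aqp7 (log scale above 1), 1 point per cell and a line at the median. The share was lower in the B16-F10 library under both definitions, while the medians of Fabp4 per cell, 229.5 and 247, were close.

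Gated cells made up 122 of 8274 ECs in the control library (1.47%, 1.23 to 1.76) and 20 of 7988 in the B16-F10 library (0.2504%, 0.153 to 0.386). The share was 1.22 percentage points lower in the B16-F10 library, a difference of -1.22 (-1.52 to -0.950), or 5.89-fold higher in the control library (3.65 to 9.98). The intervals do not cover differences between mice, digestions or sorts, and these cannot be told apart from the treatment with 1 library a group. The other ECs, those with at least 2 UMIs of Pecam1 and Cdh5 that did not pass, numbered 8152 and 7968. The gated cells were shallower than the other ECs, with medians of 5972 against 7643 UMIs in the control library and 8284 against 8755 in the B16-F10 library. No barcode of a gated cell occurred among the ECs of the other library, although 17 EC barcodes were listed in both. A doublet score marked 3 of the 122 control cells and 1 of the 20 B16-F10 cells, among 464 and 456 cells marked in all.

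Fabp4 carried most of the gate. In the control cells it ranged from 11 to 985 UMIs per cell with a median of 229.5, and in the B16-F10 cells from 13 to 996 with a median of 247. Rbp7 ranged from 0 to 145 UMIs with a median of 4.5 in the control library and from 0 to 48 with a median of 3.5 in the B16-F10 library. Aqp7 ranged from 0 to 13 with a median of 2 and from 0 to 9 with a median of 2. Of the control cells, 24 held no Rbp7 and 21 no Aqp7, so either gene alone brought cells through the gate. Summed over cells, Fabp4 stood at 41635 CPM (UMIs of the gene scaled to a total of 1000000) in the control cells against 139 in the other ECs, Rbp7 at 1444 against 1.24, and Aqp7 at 426 against 0.448. The gated cells held 56.2% of all Fabp4 UMIs of the control library, 68.3% of its Rbp7 UMIs and 67.8% of its Aqp7 UMIs. Fabp4 was also present in near-empty barcodes of 1 to 100 UMIs, at 1413 CPM in the control library against 166 in the B16-F10 library. Free RNA of this kind was estimated to supply 20.2 CPM of Fabp4 to the gated cells.

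Around the edges of the gate the summed levels of marker lists differed. In the control library the lowest total of the 3 genes in a gated cell was 13 UMIs, and 19 of the 122 cells had under 100. The 94 control ECs with at least 10 UMIs of the 3 genes but under 2 of Rbp7 and Aqp7 stood just outside. Their summed level was 3780 CPM for a list of systemic tissue capillary genes and 4012 CPM for a list of vein genes. The corresponding levels were 5108 and 503.9 CPM in the 19 gated cells under 100 UMIs, and 8685 and 407 CPM in the 103 cells with 100 or more.

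The ECs of both libraries were also clustered without the 3 gate genes. Cluster 14 held 117 of the 122 control cells (95.9%) and 18 of the 20 B16-F10 cells (90%). Its leading genes, ranked by the interval bound nearest to no change, were Gm29007, Aqp7, Gm12002, Fabp4, Rbp7, Timp4, Kcna5, Vwa3a, Meox2 and Ebf3. Cluster 14 made up 195 of 8274 control ECs (2.36%, 2.04 to 2.71) and 42 of 7988 B16-F10 ECs (0.526%, 0.379 to 0.710), 4.48-fold more in the control library (3.20 to 6.42). The 78 control cells of the cluster that missed the gate had a lower median depth, 4771 UMIs, and still carried the 3 genes at 14539 CPM. The 5 control cells outside the cluster lay in clusters 0, 10, 16 and 18, and the 2 B16-F10 cells in clusters 6 and 18.

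In the control library the gated cells combined high systemic tissue capillary genes with high fatty acid genes and low lung endothelial genes. Of 3846 genes compared, 338 (8.79%) were higher in the gated cells than in the other ECs and 415 (10.8%) were lower. A gene was compared when its higher level amounted to at least 50 UMIs at the depth of the gated cells, and was called when the level differed by at least 2-fold with an interval excluding no change. Because the gate chose the cells, these counts describe them. The median log2 ratio over all compared genes was -0.07.

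All 11 compared genes of the systemic tissue capillary list were higher, with a median log2 ratio of 6.90, and none was lower. This list and the others below were chosen with earlier results of these data known. Their counts are therefore a description and not independent evidence of what these cells are. Timp4, an inhibitor of matrix metalloproteases, stood at 942 CPM (876 to 1012) in the gated cells against 3.60 in the other ECs, a 262-fold difference (226 to 305). It was detected in 102 of the 122 cells, with a median of 4 and a maximum of 38 UMIs per cell. The transcription factor Tcf15 stood at 476 against 2.24 CPM, and its partner Meox2 at 324 against 2.70 CPM. The membrane proteins Btnl9 (552 against 2.16 CPM) and Cd300lg (1121 against 36.8 CPM) were higher too. The potassium channel Kcna5, the nucleoside transporter Slc28a2, the secreted protein C1qtnf9 and the cell cycle regulator Rgcc had log2 ratios between 5.72 and 7.59. The smallest differences of the list were those of the chemokine Cxcl12 (1227 against 307 CPM) and the water channel Aqp1 (1958 against 769 CPM).

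Of 13 compared genes for fatty acid uptake and handling, 11 were higher and none lower, with a median log2 ratio of 1.63. Among the regulators, Pparg stood at 725 CPM against 4.54 CPM, with UMIs in 104 of the 122 cells, a median of 3 and a maximum of 30. Angptl4, a secreted inhibitor of lipoprotein lipase and a target of nuclear receptors of this family, stood at 250 against 3.26 CPM. Among the genes of uptake, the fatty acid receptor Cd36 stood at 7119 against 2303 CPM (3.09-fold, 3.01 to 3.17), and Gpihbp1, which anchors lipoprotein lipase to capillaries, at 3652 against 1052 CPM. Lpl, lipoprotein lipase itself, stood at 1676 against 829 CPM. Among the genes of binding and storage, Fabp5, a relative of Fabp4, stood at 1129 against 16.6 CPM (67.8-fold, 62.0 to 74.1), and the lipid droplet protein Plin2 at 287 against 47.3 CPM. The lipases Mgll (2228 against 181 CPM) and Lipe (195 against 79.1 CPM) were higher as well, as were Cavin1 and Scarb1. The caveolin Cav1 was level at 1449 against 1443 CPM, and the lipase Pnpla2 differed by less than 2-fold at 216 against 146 CPM.

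The genes of fatty acid oxidation did not share this pattern. Of 6 compared, none was higher, 5 lay within 2-fold and 1 was lower, Cpt1a (57.5 against 128 CPM), which admits fatty acids to mitochondria. Of 2 compared genes of retinoid handling beside Rbp7, the retinal reductase Dhrs3 was higher (297 against 65.7 CPM) and the receptor Rara was lower (11.2 against 81.8 CPM). Aqp1 was the only compared gene on the list of aquaporins and glycerol use. In that list Gpd1, which makes glycerol 3-phosphate, held 5 UMIs in 5 cells.

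**Figure D2:**
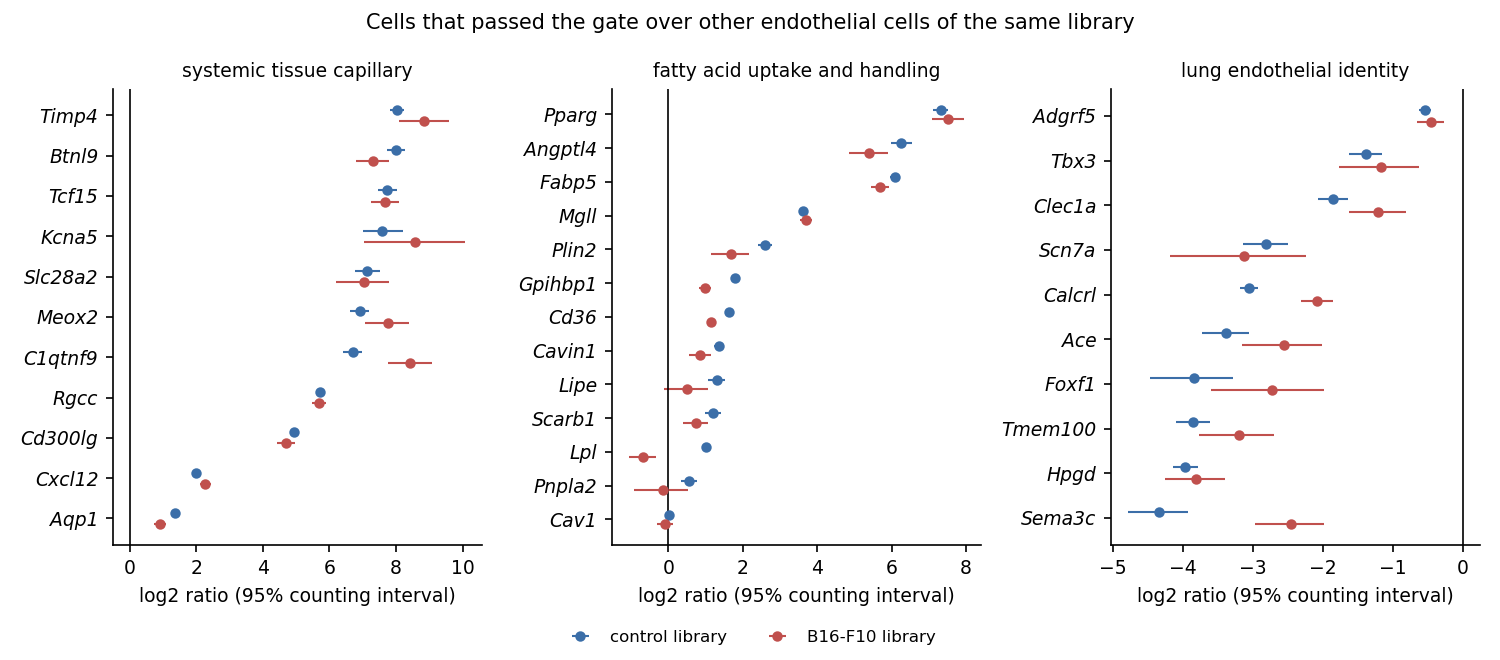
log2 ratio of gated cells over other ECs (x axis) for the compared genes of 3 lists (y axis), in the control library (blue) and the B16-F10 library (red), with 95% counting intervals. Every compared gene of the tissue capillary list lay above 0 in both libraries, and every gene of the lung list lay below 0, while Lpl lay above 0 in the control library and below it in the B16-F10 library.

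Lung endothelial identity genes were low. Of 10 compared, 9 were lower, none was higher, and the median log2 ratio was -3.22. Hpgd, which inactivates prostaglandins, stood at 332 CPM in the gated cells against 5181 CPM, of which free RNA was estimated to supply 47.9 CPM, and 1 cell held 32.0% of its UMIs. It was detected in 53 of the 122 cells. Tmem100 stood at 174 against 2506 CPM, Sema3c at 58.7 against 1189 CPM and the transcription factor Foxf1 at 31.2 against 449 CPM. The receptor Calcrl stood at 669 against 5550 CPM and angiotensin-converting enzyme, Ace, at 94.99 against 987 CPM. Scn7a, Tbx3 and Clec1a were also lower, and Adgrf5 differed by less than 2-fold at 1359 against 1971 CPM.

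The general endothelial program was largely level. Of 12 pan-endothelial genes compared, 9 lay within 2-fold, among them Kdr, Cldn5, Erg and Tie1. Emcn, a surface sialomucin, was higher (744 against 234 CPM), and Icam2 and the angiopoietin receptor Tek were lower. The marker lists of lung vessel types were mixed, with median log2 ratios of -1.05 for gCap and -2.54 for aCap. These ratios are of UMIs summed over cells, and the aCap list per cell at equal depth went the other way, as given below. In the gCap list 5 of 10 compared genes were lower, such as Kit (34.995 against 602 CPM) and Plvap (231 against 937 CPM), and 2 were higher, Gpihbp1 and Lpl, which the fatty acid list also holds. In the aCap list 4 of 6 were lower and 1 was higher, Car4 (1394 against 626 CPM). Of 6 compared artery genes 4 were lower and Fbln5 was higher. Of 4 compared vein genes 2 were lower, Vwf and Slc6a2, and Nr2f2 was higher (170 against 55.0 CPM). Of 7 compared basement membrane genes 3 were higher and none was lower: the heparan sulphate proteoglycan Hspg2 (329 against 8.51 CPM), Sparc (2267 against 506 CPM) and the laminin chain Lama4 (150 against 28.9 CPM). Among barrier genes, the junction protein Jam2 was higher (492 against 111 CPM) and Plvap and Ocln were lower.

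Outside the lists, the 20 genes with the largest differences by the bound nearest to no change included Gm12002 (264 against 0.540 CPM), Cldn15, a claudin (156 against 0.602 CPM), Vwa3a (232 against 0.988 CPM), Lmo1, a transcriptional cofactor (85.0 against 0.386 CPM), and Ebf3, a transcription factor (220 against 1.73 CPM). They also included Gpr160, an orphan receptor (142 against 0.803 CPM), Csf2rb, the shared receptor chain for GM-CSF, interleukin 3 and interleukin 5 (89.99 against 0.525 CPM), Papss2, which makes the sulphate donor of the cell (225 against 1.90 CPM), Spaar (132 against 1.00 CPM) and Gm29007 (92.5 against 0.679 CPM). Cfd and Car3 completed the 20 together with Timp4, Btnl9, Tcf15, Pparg, Kcna5, Slc28a2, Meox2 and C1qtnf9. Lmo1 was detected in 42 of the 122 cells, Ebf3 in 74 and Vwa3a in 70, and no single cell held over 11.4% of the UMIs of Gm12002, Vwa3a, Lmo1 or Ebf3.

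The 15 genes with the largest differences downward were Adgrl3 (100.0 against 2658 CPM), Slc6a2, H2-Ab1, Sema3c, Glp1r, Hpgd, Nckap5, Casc4, Tmem100, Kit, Cadm1, Pde3a, Slc16a9, Dpp4 and Sntb1. H2-Ab1, a chain of the class II antigen-presenting molecule, had no UMI in the gated cells, where 3 counts would be the floor, and stood at 74.3 CPM in the other ECs. Part of what remained came from single cells: 1 cell held 52.5% of the Adgrl3 UMIs of the gated cells. The 20 genes above were all higher in the gated cells of the B16-F10 library too, with intervals above 0, and the 15 were all lower, with intervals below 0. For some of the 20 this repeat rested on few cells: 1 B16-F10 cell held all 8 UMIs of Cfd and 90% of those of Car3, and Gm29007 had 3 UMIs.

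Markers of other cell types were unevenly spread over the gated cells. The adipocyte list of 12 genes summed to 365 CPM in the control cells against 1.42 CPM in the other ECs, mostly from Cfd (114 CPM) and Car3 (165 CPM). Adipocyte UMIs were at 0 in 84 of the 122 cells, 5 cells held 69.9% of them, and the highest cell held 90. The defining adipocyte gene Adipoq held 7 UMIs in all and Lep none. In the B16-F10 cells the list summed to 171 CPM, and 17 of 20 cells held none. The part of these cells in the levels of the fatty acid genes was not tested. The 3 haemoglobin genes summed to 7668 CPM in the control cells against 1406 CPM in the other ECs. There 5 cells held 91.8% of the haemoglobin UMIs, 1 of them 3671 and another 1926, and the median cell held 4. Of the 8 cardiomyocyte genes, 40 UMIs were counted in all control cells, and 103 cells held none. Of the mural list, Rgs5 alone passed the depth limit and was higher (150 against 10.0 CPM), and Pdgfrb, which defines pericytes, was at 0. Of the 10 macrophage genes, Ptprc, Csf1r, Adgre1, Cd68, C1qa and Ear2 were at 0 in the gated cells of both libraries. The list as a whole held 24 UMIs in 17 of the 122 control cells (30.0 against 59.1 CPM in the other ECs) and 18 UMIs in 12 of the 20 B16-F10 cells (95.99 against 145 CPM), of which Lyz2 gave 16 and 12.

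Lymphatic markers came from few cells. Of 6 compared genes, Mmrn1, Reln and Ccl21a were higher in the control gated cells, Lyve1 (136 against 1435 CPM) and Pard6g were lower, and Flt4 lay within 2-fold. The list summed to 895 CPM in the gated cells against 1841 CPM in the other ECs. The 5 cells with the most lymphatic UMIs held 92.2% of that list's UMIs, 2 of them 436 and 172. Both lay in cluster 18, which Ptx3, Ccl21a, Reln and Mmrn1 led, and held 18 and 13 UMIs of Fabp4. In the B16-F10 library 1 such cell held 715 of the 770 lymphatic UMIs and 18 UMIs of Fabp4. The lymphatic list summed to 13268 CPM in the 5 control cells outside cluster 14. The lung identity list summed to 10574 CPM in these 5 cells against 3241 CPM in all 122, and the tissue capillary list to 1572 CPM against 8295 CPM.

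To compare cells at 1 depth, each cell was thinned to 2000 UMIs. All gated cells reached that depth, and 115 control and 128 B16-F10 other ECs did not and were left out. In the control library the tissue capillary list then ranged from 1 to 43 UMIs per gated cell with a median of 17, and from 0 to 42 with a median of 2 in the other ECs. The lung identity list ranged from 0 to 59 with a median of 4.5 in the gated cells, against a median of 39. The fatty acid list had medians of 41.5 and 13, and the gCap list of 14.5 and 16. For the aCap list the medians were 4 in the gated cells and 1 in the other ECs, with 12.3% and 39.4% of cells at 0. Its 95th percentiles were 11 and 24, so the highest aCap values lay among the other ECs. Of the 122 cells, 106 lay above the 95th percentile of the other ECs for the tissue capillary list, 117 lay below their 5th percentile for the lung list, and 105 did both, as did 55 of 8037 other ECs. In the B16-F10 library 16 of 20 cells lay above the first limit, 9 below the second and 8 beyond both, as did 27 of 7840 other ECs. The second limit was 5 UMIs in the B16-F10 library against 16 in the control library, so the counts of the 2 libraries are not comparable. In the B16-F10 library 13 of the 20 gated cells lay at or below that limit. The lung list had a median of 5 in these gated cells, near the 4.5 of the gated control cells, and of 28 in the other B16-F10 ECs. The other ECs include cells that missed the gate but shared the cluster of most gated cells. Of these, 73 control cells reached the depth. Their medians were 10 for the tissue capillary, 5 for the lung and 25 for the fatty acid list, and 1 for aCap. The corresponding medians of 23 such B16-F10 cells were 9, 7, 17 and 1. The low lung and high tissue capillary levels were thus not limited to gated cells. How many of these ungated cells lay beyond both limits was not counted.

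**Figure D3:**
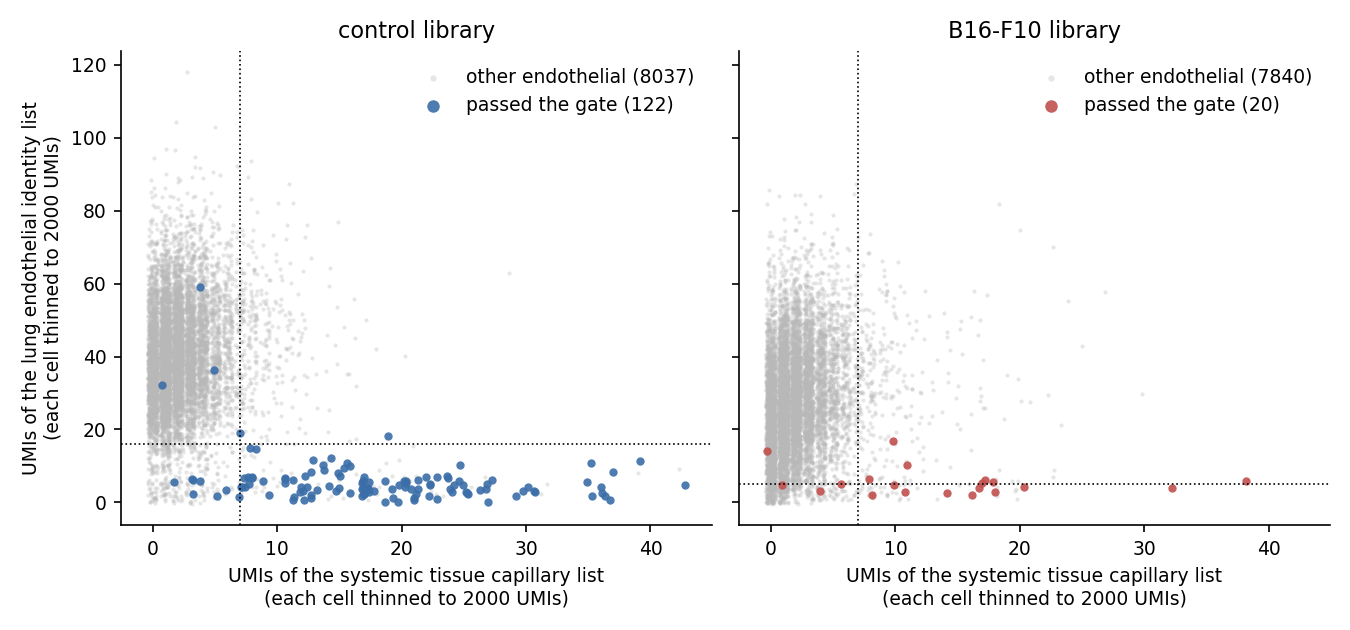
UMIs of the systemic tissue capillary list (x axis) against UMIs of the lung endothelial identity list (y axis) per cell, each cell thinned to 2000 UMIs, in the control library (left) and the B16-F10 library (right). Coloured points are gated cells and grey points other ECs, points are shifted by up to 0.4 for visibility, and dotted lines mark the 95th (vertical) and 5th (horizontal) percentiles of the other ECs. Most gated control cells lay at the lower right, with 105 of 122 beyond both lines, against 8 of 20 gated cells in the B16-F10 library.

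The contrast was recomputed within the B16-F10 library, whose 20 gated cells held 187525 UMIs against 800113 in the control cells. Of 787 genes compared there, 97 (12.3%) were higher in the gated cells and 104 (13.2%) lower. Fabp4 stood at 31521 against 30.2 CPM, Rbp7 at 715 against 0.255 CPM and Aqp7 at 283 against 0.113 CPM. Timp4 stood at 187 CPM against 0.411 CPM, Tcf15 at 379 against 1.85 CPM, Meox2 at 171 against 0.793 CPM and Pparg at 363 against 1.98 CPM. Of 5 compared tissue capillary genes 4 were higher, of 9 fatty acid genes 4 were higher and none lower, and of 10 lung identity genes 9 were lower. Lpl stood on the other side, at 347 CPM in the gated cells against 561 CPM, a log2 ratio of -0.70 (-1.07 to -0.35), where the control library gave 1.02 (0.94 to 1.09). The difference between the libraries was not tested.

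The gated cells of the B16-F10 library were then set against those of the control library. Of 2227 genes with at least 20 UMIs at the depth of the smaller sum, 126 (5.66%) were higher and 51 (2.29%) lower in the B16-F10 library, and the median log2 ratio over all of them was 0.08. Lists are counted below by intervals off 0, for genes with at least 20 UMIs in both sums together. Of all 6875 such genes, 573 (8.33%) had intervals above 0 and 385 (5.6%) below 0. Of 16 fatty acid genes, 10 had intervals below 0 and 1, Scarb1, an interval above 0, and the median log2 ratio was -0.47. Lpl stood at 347 CPM in the B16-F10 library and 1676 CPM in the control library, a log2 ratio of -2.27 (-2.66 to -1.91), with UMIs in 11 of 20 and 103 of 122 cells. In the other ECs its ratio was -0.56. Gpihbp1 stood at 1882 and 3652 CPM, a log2 ratio of -0.96 (-1.12 to -0.80), and Cd36 at 4378 and 7119 CPM, a ratio of -0.70 (-0.81 to -0.60). Pparg stood at 363 and 725 CPM, a ratio of -0.999 (-1.38 to -0.63). Of the 12 tissue capillary genes 7 had intervals below 0 and 2, Cxcl12 and Rgcc, intervals above 0. Timp4 had the lowest ratio among them, with 187 and 942 CPM and a log2 ratio of -2.34 (-2.87 to -1.85).

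A list of 12 genes was put together here for the reactive capillaries (rCap) of the study. The study names Adamts9, Bcl3, Inhbb, Osmr, Pim3, Scarb1 and Tmem252 among its top rCap markers. Others of the list, such as Jak2 and Pfkfb3, it reports as upregulated in rCap. The study drew in part on these libraries, so the direction of these genes is not independent evidence. Of the 12 genes, 8 had intervals above 0 in the gated cells of the B16-F10 library and 1, Jak2, an interval below 0. The median log2 ratio was 0.90 in the gated cells and 1.78 in the other ECs. Inhbb, a subunit of activin B, stood at 155 CPM in the B16-F10 cells and 13.8 CPM in the control cells, a log2 ratio of 3.49 (2.45 to 4.64), against 4.74 in the other ECs. Socs3, a feedback inhibitor of cytokine signalling, stood at 160 and 27.5 CPM, a ratio of 2.54, against 2.76. The kinase Pim3 stood at 432 and 299.96 CPM, a ratio of 0.53 (0.14 to 0.90), against 1.91 in the other ECs. The protease Adamts9 stood at 469 and 542 CPM, a ratio of -0.21 (-0.56 to 0.12), against 1.65. Both of these were already higher in the gated cells than in the other ECs of the control library, Pim3 at 299.96 against 72.7 CPM and Adamts9 at 542 against 100.2 CPM. The immediate early gene Egr1 behaved alike, with 121 CPM in the gated cells against 16.8 CPM in the other ECs of the control library, and log2 ratios between the libraries of 0.02 (-0.71 to 0.68) and 3.09. These differences between kinds of cell were not tested.

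**Figure D4:**
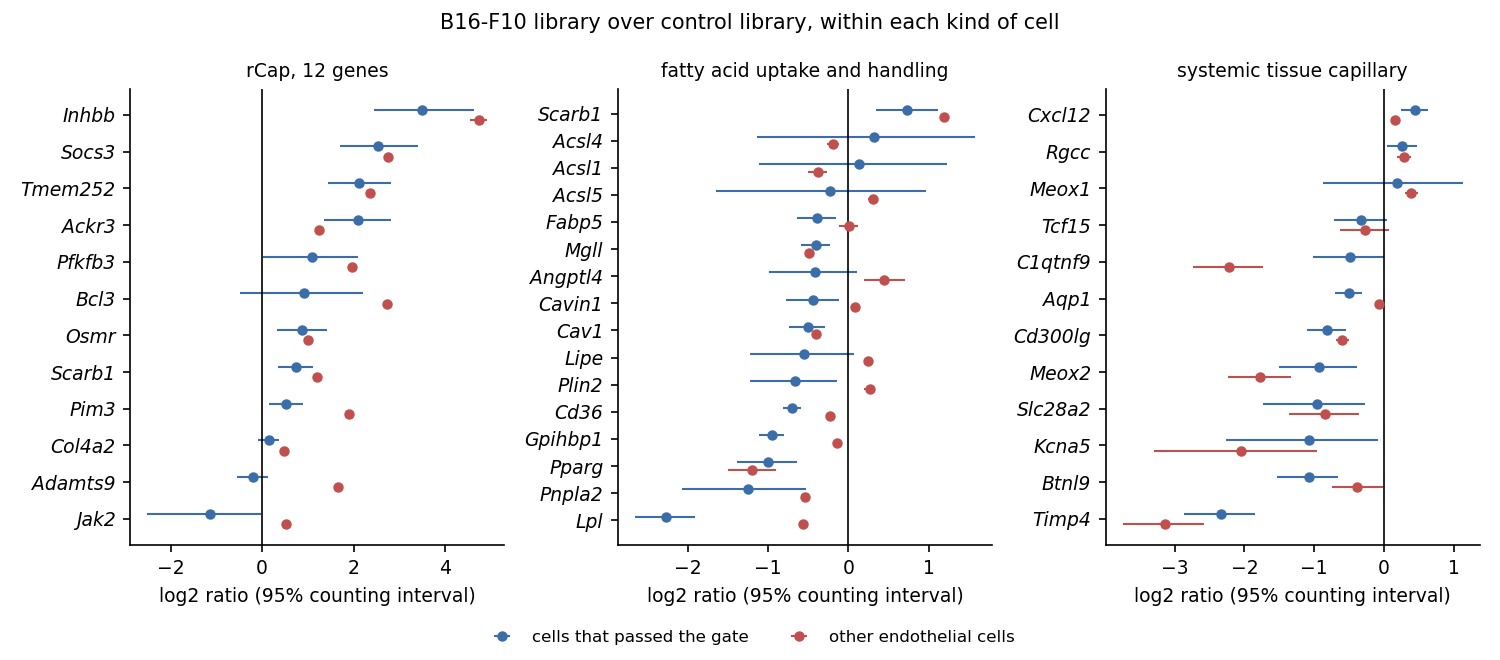
log2 ratio of the B16-F10 library over the control library (x axis) for genes of 3 lists (y axis) with at least 20 UMIs in gated cells, within the gated cells (blue) and within the other ECs (red), with 95% counting intervals. Inhbb and Socs3 lay above 0 in both kinds of cell, Pim3 and Adamts9 lay nearer to 0 in the gated cells, and Lpl and Timp4 lay below 0 in both.

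Among the 10 genes highest in the B16-F10 cells by the bound nearest to no change, Sema3a, Cmah, Ccl21a, Maf, Prox1 and Adamtsl1 rested on single cells, which held between 97.8% and 100% of their UMIs in that library. Inhbb, Lrg1, Cyp1a1 and Emp1 completed the 10. Within cluster 14, which leaves out 2 of the 20 B16-F10 cells, Inhbb had a log2 ratio of 3.66 (2.62 to 4.81), Lrg1 of 2.98 (2.14 to 3.86) and Emp1 of 2.86 (2.27 to 3.46), while Cyp1a1 had 0.37 (-0.80 to 1.41). Without the 1 B16-F10 cell that held most UMIs of the gene, the ratio was 3.16 for Inhbb, 2.29 for Lrg1 and 1.83 for Emp1, with intervals above 0. The 10 lowest were the haemoglobin genes Hba-a1, Hba-a2, Hbb-bs and Hbb-bt together with Agmo, Lpl, Timp4, Enah, 9330175M20Rik and Cdkn1c. The haemoglobin difference rested on 2 control cells. Without them Hba-a1, Hbb-bs and Hbb-bt summed to 692 CPM in the control cells against 875 CPM in the B16-F10 cells, a log2 ratio of 0.34 (0.08 to 0.59) where all cells gave -3.13, and the median gated cell held 4 such UMIs among control cells against 8 among B16-F10 cells. Agmo, which cleaves ether lipids, stood at 26.7 and 240.0 CPM, a log2 ratio of -3.17 (-4.81 to -1.92), and at -3.36 in the other ECs. Enah, a regulator of actin filaments, stood at 21.3 and 122 CPM, a ratio of -2.52 (-4.43 to -1.12), and Cdkn1c, an inhibitor of the cell cycle, at 149 and 417 CPM, a ratio of -1.48 (-2.09 to -0.93). In the other ECs the ratios of Enah and Cdkn1c were 0.02 and -0.04. Hba-a1 and Hba-a2, Hbb-bs and Hbb-bt, and the Ccl21a copies are near-identical, so reads may have been split among them and their single values are uncertain.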

How the data were processed

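The authors deposited raw UMI counts per gene and barcode for both libraries, and the headers name Cell Ranger 7.2.0 and the labels the mm10 genome. The study's methods give an earlier version, and the labels a v2 kit. Whether intron reads were counted is not given in the sources used here. The deposited counts list all barcodes, with no filter or normalization. Total depth was 85794655 UMIs (control) and 104978816 UMIs (B16-F10). Of 32285 gene IDs, 32235 were found in GENCODE M21, which gave the coordinates.

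The members and gene lists were chosen with earlier results of these data known. UMIs were summed per set of cells and expressed per 1000000 UMIs of the same cells (CPM). Levels have exact Poisson and ratios exact conditional binomial intervals, with no pseudocount and with a count of 0 set to 3, shares Clopper-Pearson and differences of shares Newcombe intervals, all at 95%. The sum comparison was tested on simulated counts drawn independently, which is what the intervals assume. That test does not cover UMIs concentrated in single cells. With 1 library per group no test was made. Alternatives to the gate, filters, depth limit and scaling are given in the closing section. Intervals treat UMIs, and cells for shares, as independent draws. Named genes were all genes of the lists and, ranked by the interval bound nearest to 0, the 20 higher and 15 lower (10 and 10 between libraries), without gate, mitochondrial and ribosomal genes. Free RNA came from barcodes of 1 to 100 UMIs, scaled by Sftpc, Sftpb and Scgb1a1 in cells with under 10 of their UMIs. Doublets were scored against simulated pairs and called at about 0.8% per 1000 cells, kept in the main results and removed in an alternative. ECs were clustered on 2000 variable genes, 30 components and 20 neighbours with leidenalg 0.10.2 at resolution 0.8, without the gate genes (Python 3.11.15, NumPy 2.4.6, SciPy 1.17.1).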

Additional observations from a re-analysis of the deposited data

Results flagged for a closer look

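Of 150 list genes with at least 20 UMIs in the gated cells, 17 moved one way between the libraries in the gated cells and the other way in the other ECs, with both counting intervals off 0. The difference was not tested, each library being a single measurement. The other ECs held 64771120 UMIs in the control and 70639861 in the B16-F10 library. Intervals there excluded 0 even for log2 ratios near 0, such as -0.05 for Tbx2 and 0.08 for Cavin1. The share of such genes among all genes is not given here, so the count of 17 has no background. Values are log2 ratios of the B16-F10 library over the control library, in the gated cells and then in the other ECs. The genes higher in the gated cells and lower in the other ECs were Emcn (0.52 against -0.13), Calcrl (0.35 against -0.62), Sema3c (1.71 against -0.18), Emp2 (0.81 against -0.28), Tbx2 (1.68 against -0.05), Flt4 (1.95 against -0.11), Reln (0.92 against -0.21) and Lama4 (0.74 against -0.52). The genes lower in the gated cells and higher in the other ECs were Cldn5 (-0.75 against 0.17), Esam (-0.47 against 0.23), Plin2 (-0.66 against 0.26), Cavin1 (-0.44 against 0.08), Scgb1a1 (-1.52 against 2.29), Hba-a1 (-3.51 against 0.31), Hbb-bs (-3.17 against 0.54), Hbb-bt (-1.65 against 0.65) and Jak2 (-1.14 against 0.52).

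The 3 haemoglobin genes rested on 2 control cells. Without these the ratio was 0.04 (-0.50 to 0.56) for Hba-a1, 0.47 (0.13 to 0.79) for Hbb-bs and 0.34 (-0.42 to 1.05) for Hbb-bt, and the median gated cell held more UMIs in the B16-F10 library than in the control library for all 3, 2 against 1, 5 against 2 and 1 against 0.

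Within cluster 14, 11 of the 17 kept the side and an interval off 0, and Cavin1, Emp2, Tbx2, Flt4, Reln and Jak2 did not. Several others rested on 1 cell as well. A single B16-F10 cell held 91.7% of the Tbx2 UMIs, 100% of Reln, 73.5% of Emp2, 69.4% of Flt4, 66.7% of Sema3c and 36.25% of Calcrl. Without the B16-F10 cell that held most UMIs of the gene, 10 of the 17 kept the side and an interval off 0. Sema3c then had 0.25 (-0.80 to 1.19), Flt4 0.38 (-0.56 to 1.22) and Lama4 0.53 (-0.05 to 1.07). Calcrl had -0.17 (-0.49 to 0.14), Emp2 -0.98 (-1.93 to -0.15) and Tbx2 -1.79 (-7.18 to 0.90), the other side of 0, and Reln had no UMI left. Without the top control cell instead, Hbb-bt had -0.44 (-1.16 to 0.23) and Jak2 -0.96 (-2.33 to 0.18). These recomputations were chosen after seeing the data. Emcn, Cldn5, Esam, Plin2, Cavin1 and Scgb1a1 kept the side and an interval off 0 without either cell. Of these, Scgb1a1 is a gene of the epithelial list that also served to scale free RNA, and 1 control cell held 34.5% of its UMIs. Cldn5, which seals endothelial junctions, had at most 3.18% of its UMIs in 1 control cell and 19.0% in 1 B16-F10 cell.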

How the results depend on the processing

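No result has a replicate check. No paired analysis was possible because there was a single library of either kind. Each of 11 results was recomputed under the alternatives: of 190 values 148 stayed within the counting interval or within 1.5 times the count, 41 moved beyond it and 1 reversed. The share was lower in the B16-F10 library under every alternative, with a difference between -1.83 and -0.817 points.

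Shares are given in % for the control and the B16-F10 library, with their difference in points. They were 0.967, 0.150 and -0.817 with Rbp7 and Aqp7 together at 5 UMIs or more, and 0.952, 0.120 and -0.831 with cells thinned to 2000 UMIs before the gate. With the cells of cluster 14 in place of the gate, chosen after seeing the data, they were 2.36, 0.526 and -1.83. Leaving out cells with 2 or more UMIs of other lineages removed most ECs, since most cells held haemoglobin UMIs. It left 338 ECs in the control library, 6 of them gated, and 39 in the B16-F10 library, 0 of them gated. It gave 1.78, 0 and -1.78, with 15 genes higher and 14 lower, medians of 1.84 for the fatty acid, 2.41 for the tissue capillary and -4.60 for the lung list, a reversed gCap median of 1.79, and no value for aCap.

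Genes higher and lower in the control gated cells numbered 548 and 668 at a depth limit of 20 UMIs, and 156 and 185 with cells thinned after the gate, which lowers the depth. The fatty acid median, 1.63 in the report, was 1.44 with no upper gene limit, 1.67 with a gate of 50 UMIs, 1.46 with Rbp7 and Aqp7 at 1 UMI, 1.72 at 5 UMIs, 1.33 at the limit of 20 UMIs, 1.70 scaled by the median ratio, 1.71 thinned after the gate, 1.69 without the gate genes in the totals, and 1.70 for gated cells of cluster 14. The lung median was -2.73 with no upper gene limit, -3.79 with Rbp7 and Aqp7 at 5 UMIs, -3.53 without doublets, -3.90 thinned after the gate and -3.83 within cluster 14. The tissue capillary median was 5.86 with Rbp7 and Aqp7 at 5 UMIs and 6.23 thinned after the gate, the gCap median -1.83 thinned after the gate, and the aCap median -4.12 with Rbp7 and Aqp7 at 5 UMIs, -1.69 at the limit of 20 UMIs and -3.92 within cluster 14. The cause of these shifts was not tested.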
